A study of Homo sapiens with 12 samples.

Results

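The retinoic acid genes described here are 9 of the 60671 genes in the count table: CYP26B1, RARA, RARB, RARG, CRABP2, ALDH1A1, ALDH1A3, DHRS3 and RARRES2. They were taken by name, in each library and across the 4 groups, because CYP26B1 had shown a different response to serum in the 2 genotypes. The genes were thus chosen by measured values of CYP26B1, so the values of that gene, and the difference between the serum responses of every gene in the list, are given without a test. Tests are given for the other genes, within each comparison. RNA was measured in BJ-5ta, an established human fibroblast line that carries hTERT and therefore divides without limit, as wild-type cells (WT) and as ΔLEO1 cells, in which LEO1, a subunit of the transcription elongation complex PAF1C, was knocked out with CRISPR/Cas9. Both genotypes were grown in RPMI medium with 10% serum (WT_10 and Leo1_10) or kept for 10 days in 0.1% serum, which brings fibroblasts into quiescence (WT_01 and Leo1_01). For each group 3 poly(A) libraries were sequenced, with synthetic ERCC RNAs added as a reference. The ΔLEO1 cells are 1 clone, so the spread between their libraries does not cover differences between clones, and no other wild-type clone was measured. It is not stated if those 3 libraries came from separate cultures, so the p-values measure only the spread between these libraries, which may be technical.

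Retinoic acid is made from vitamin A in a pair of steps. Retinol dehydrogenases such as RDH10 oxidize retinol to retinaldehyde, DHRS3 reduces retinaldehyde back to retinol, and the aldehyde dehydrogenases of the ALDH1A family oxidize retinaldehyde irreversibly to retinoic acid. CRABP2 carries retinoic acid to the nucleus, where the receptors RARA, RARB and RARG bind DNA as dimers with the retinoid X receptors, and CYP26 enzymes such as CYP26B1 oxidize retinoic acid and so clear it. RARB, CYP26B1 and DHRS3 are known in many cells as genes that retinoic acid itself induces. RARRES2, first named as a gene that answers to a retinoid, encodes the secreted chemoattractant chemerin.

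The RARB promoter is the textbook case of a retinoic acid response element, a direct repeat of a hexamer to which the receptor dimer binds. It is shown because RARB and CYP26B1, both known targets of retinoic acid, were higher in Leo1_10 than in WT_10. The choice was thus made after the values were seen. DHRS3, also named above as a target, was lower in Leo1_10 than in WT_10 (log2 fold change −2.91, SE 0.53). The CYP26B1 promoter is shown for comparison, and signalling by retinoic acid was not tested. The sequences are the 250 bases before a transcription start in RefSeq on GRCh38.p14, 5′ to 3′ on the strand of the gene, chr3:25428013-25428262 on the plus strand for RARB and chr2:72147863-72148112 on the minus strand for CYP26B1. Capitals mark a direct repeat of a half-site with 5 bases between, where the half-sites searched on both strands were AGGTCA with its variant AGTTCA, and also GGGTCA with its variant GGTTCA.
RARB: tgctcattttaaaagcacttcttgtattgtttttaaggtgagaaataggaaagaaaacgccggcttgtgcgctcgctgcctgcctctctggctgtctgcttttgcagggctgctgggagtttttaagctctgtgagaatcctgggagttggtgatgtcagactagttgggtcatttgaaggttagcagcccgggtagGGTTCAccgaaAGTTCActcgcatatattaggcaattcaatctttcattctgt
CYP26B1: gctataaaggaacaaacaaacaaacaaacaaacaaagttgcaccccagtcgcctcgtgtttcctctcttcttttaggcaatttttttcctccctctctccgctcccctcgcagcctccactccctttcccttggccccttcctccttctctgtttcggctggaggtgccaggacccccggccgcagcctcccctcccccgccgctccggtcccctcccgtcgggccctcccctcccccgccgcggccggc
The repeat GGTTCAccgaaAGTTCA lies at chr3:25428210-25428226, and its last base is 37 bases before the start. RefSeq held 16 promoter entries for the 9 genes (250 bases before to 50 after a start). Only this RARB entry held a direct repeat with 1, 2 or 5 bases between the half-sites, while 8 of the 16 held at least 1 half-site. Of all 35116 promoters in the table, 0.0883% held such a repeat with 5 bases between, 0.259% held one with any of the 3 spacings and 38.6% held a half-site. The CYP26B1 window held no half-site, which says only that these letters are not in it. A match is a description of the letters and was not tested as a binding site.

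The depth was 26240632 to 45315560 gene counts and 244023 to 1090393 ERCC counts per library (0.625% to 3.24% of all counts). Levels are given as ERCC-scaled counts, which are CPM of the effective ERCC library size, or as CPM of the gene counts. LEO1 had 682 to 1001 counts in the 6 WT libraries and 23 to 55 in the 6 ΔLEO1 libraries. In each group the library with the highest running number stood apart, with a chi-square per gene of 66.8 to 145 against the others, where the 2 lower-numbered libraries had 3.04 to 12.2 between them. All 15 fibroblast markers were above 1 CPM in all 12 libraries, while CD3E, ITGAM, HBB and LYZ of blood cells, CDH5, KDR and CLDN5 of endothelium, and ESRP1 and TP63 of epithelium had 3 counts or fewer in every library. The summed level of 10 epithelial markers, of which 2 were above 1 CPM in all 12 libraries, was 319 to 463 CPM in WT_10, 167 to 182 in WT_01, 841 to 1140 in Leo1_10 and 510 to 585 in Leo1_01. That of 8 smooth muscle and pericyte markers was 2120 to 3250, 925 to 1120, 2500 to 5160 and 1760 to 2110 CPM in the same order. The part of these markers in the results below was not tested. On the ERCC scale the median of all 13236 tested genes fell by 0.97 (log2) with low serum in WT and by 1.05 in ΔLEO1 cells, and it was higher in ΔLEO1 than in WT cells by 0.35 in 10% and by 0.27 in 0.1% serum. TMM scaling on the genes, which measures a gene against the other genes, set these medians between 0.00 and 0.02. The RNA input of each library is not given, and in bulk RNA fewer cells with a transcript and less of it per cell cannot be told apart.

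**Figure D1:**
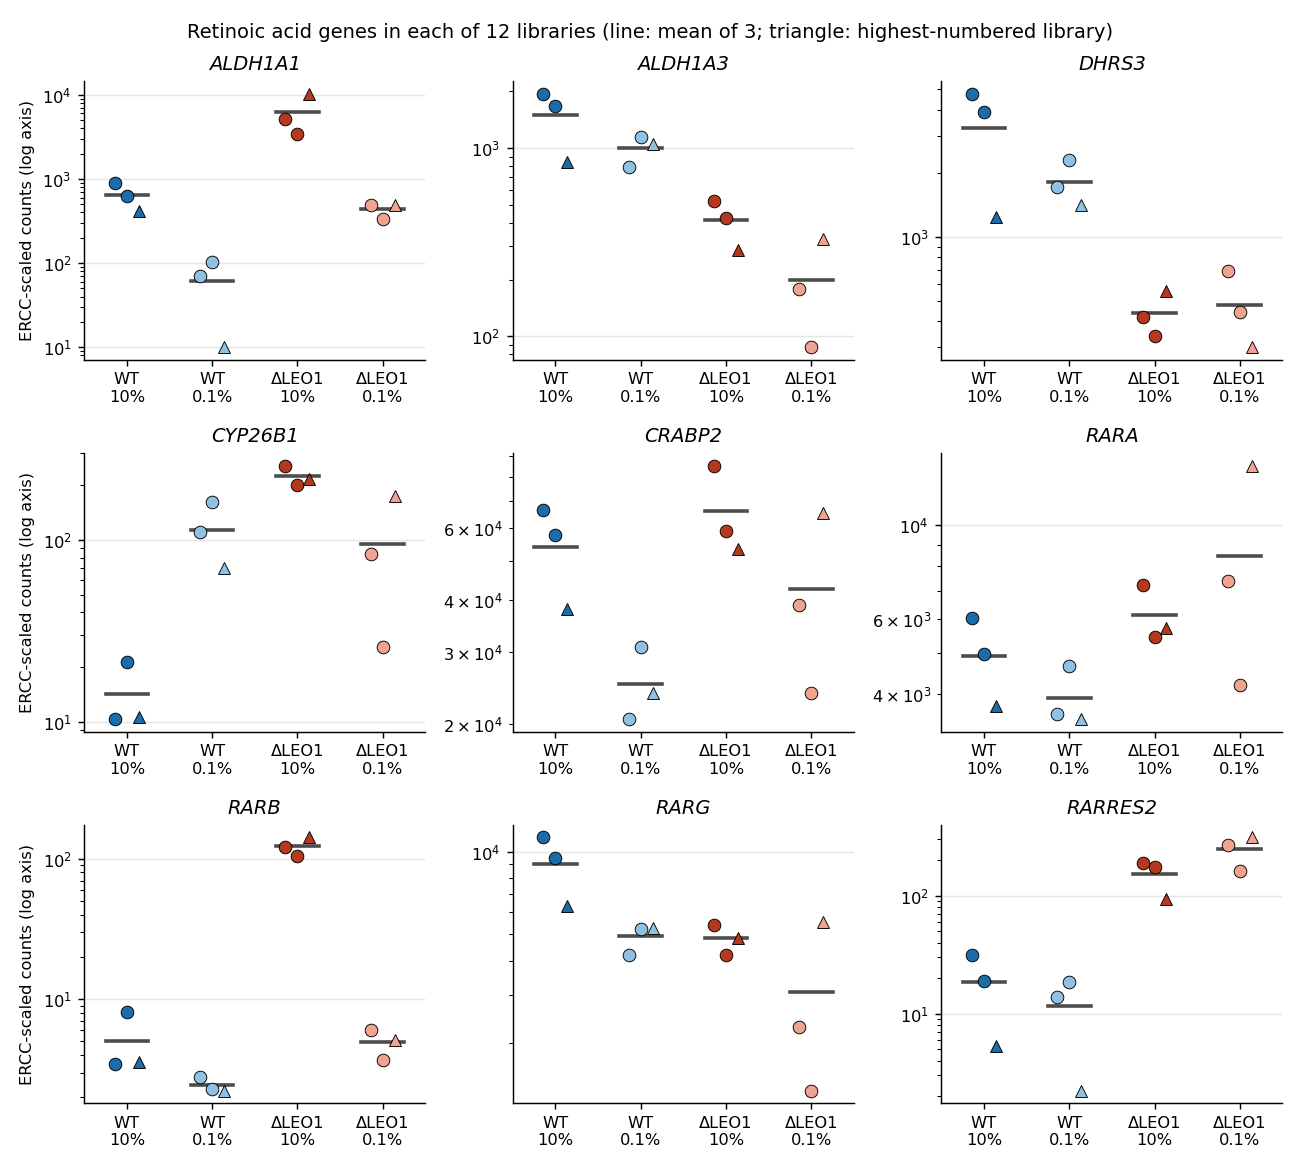
Each panel gives the ERCC-scaled counts (log axis) of 1 gene in the 3 libraries of each group, with a line at the mean and a triangle for the library with the highest running number. ALDH1A1 and RARB are highest in the 3 libraries of ΔLEO1 cells in 10% serum, and CYP26B1 is lowest in the 3 libraries of WT cells in 10% serum.

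Of the enzymes that make retinoic acid, ALDH1A1 and ALDH1A3 are among the 9 genes. They differed between the genotypes in opposite directions, and ALDH1A1 also fell with low serum in both. ALDH1A1 (ENSG00000165092, chromosome 9 of GRCh38 from 72900662 to 73080442, minus strand, 13 exons) had 899, 628 and 420 ERCC-scaled counts in the WT_10 libraries, 70.9, 104 and 10.0 in WT_01, 5142, 3407 and 10301 in Leo1_10, and 497, 332 and 488 in Leo1_01. The ΔLEO1 libraries were above the WT libraries in each serum, and the 10% libraries above the 0.1% libraries in each genotype, without overlap. In 10% serum ALDH1A1 was higher in ΔLEO1 cells by 3.28 on the log2 scale (SE 0.53, adjusted p = 4.43e-08). In 0.1% serum it was higher by 2.87 (SE 0.54, adjusted p = 5.14e-06). With low serum it fell by 3.43 in WT (SE 0.55, adjusted p = 6.1e-08) and by 3.84 in ΔLEO1 cells (SE 0.55, adjusted p = 9.34e-10), more than the median gene in both. These 4 calls were made under every scaling, test and filter tried and with each library left out. The highest-numbered library was the outlying one here, with 4340 counts against 1261 and 1325 in Leo1_10, and 9 counts against 51 and 45 in WT_01. Without these libraries the differences were 2.49 and 2.26 between genotypes and −3.14 and −3.37 between sera. On the CPM scale ALDH1A1 had the same order of group means as the epithelial marker sum, with 53.1 CPM in Leo1_10, 8.64 in Leo1_01, 6.38 in WT_10 and 1.17 in WT_01. The libraries of Leo1_01 and WT_10 overlapped, at 5.38 to 11.1 and 5.97 to 7.13 CPM. On the ERCC scale the mean of Leo1_01 (439) was below that of WT_10 (649). The likeness of order was not tested.

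ALDH1A3 (ENSG00000184254, chromosome 15 from 100877714 to 100916626, plus strand, 13 exons) is the other enzyme of the same step in the list. It had 1946, 1681 and 845 ERCC-scaled counts in WT_10, 793, 1152 and 1045 in WT_01, 526, 427 and 287 in Leo1_10, and 179, 87.5 and 329 in Leo1_01. All ΔLEO1 libraries were below all WT libraries. The log2 fold change between ΔLEO1 and WT cells was −1.85 in 10% serum (SE 0.53, adjusted p = 0.00804) and −2.34 in 0.1% serum (SE 0.54, adjusted p = 4.23e-04). The call in 10% serum was lost without WT_10 replicate 1 or 2 (adjusted p = 0.0849 and 0.0656) and without Leo1_10 replicate 5 or 6 (0.0683 and 0.117), and both calls were lost with the 2 lower-numbered libraries of each group summed (0.292 and 0.127). Serum gave no call, with −0.58 in WT (adjusted p = 0.309) and −1.07 in ΔLEO1 cells (adjusted p = 0.0766), but without the highest-numbered libraries both were called, at −0.90 (adjusted p = 0.041) and −1.85 (adjusted p = 3.91e-05). Exons of ALDH1A3 share 1585 bases with the antisense gene AC015712.2, which had 111 to 358 counts per library, and the strand setting of the counting is not given, so reads of these 2 genes cannot be told apart there.

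The balance between both dehydrogenases can be read within a library, where no scaling enters. This share was chosen after the values were seen and is given without a test. Per kilobase of exon, ALDH1A1 made up 48.3%, 43.1% and 50.2% of the sum of ALDH1A1 and ALDH1A3 in WT_10 and 15.3%, 15.4% and 1.9% in WT_01. It made up 95.2%, 94.2% and 98.6% in Leo1_10, and 84.9%, 88.5% and 75.0% in Leo1_01. In both sera the shares of the 2 genotypes did not overlap, and within each genotype the share was lower in 0.1% serum. ALDH1A2, another enzyme of the ALDH1A family, is not in this share and was named after its values were seen. Its mean ERCC-scaled counts were 102 in WT_10, 171 in WT_01, 199 in Leo1_10 and 319 in Leo1_01. It was not called on the ERCC scale. TMM scaling called it higher with low serum in WT (1.62, adjusted p = 0.00118) and ΔLEO1 cells (1.90, adjusted p = 4.22e-04). It also called it higher in Leo1_01 than in WT_01 (0.85, adjusted p = 0.022).

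DHRS3 (ENSG00000162496, chromosome 1 from 12567910 to 12617731, minus strand, 6 exons), the reductase that returns retinaldehyde to retinol, was lower in ΔLEO1 cells. Its ERCC-scaled counts were 4771, 3888 and 1240 in WT_10, 1733, 2310 and 1421 in WT_01, 420, 339 and 555 in Leo1_10, and 694, 439 and 301 in Leo1_01. No ΔLEO1 library reached a WT library. The log2 fold change was −2.91 in 10% serum (SE 0.53, adjusted p = 1.83e-06) and −1.93 in 0.1% serum (SE 0.51, adjusted p = 0.00366). The second was lost in a fit to the 6 libraries compared (adjusted p = 0.0507) and with the lower-numbered libraries summed (0.148). Serum gave −0.86 in WT (adjusted p = 0.137) and 0.13 in ΔLEO1 cells (adjusted p = 0.82). TMM scaling turned the WT value to 0.21 (adjusted p = 0.755) and called the ΔLEO1 value higher, at 1.47 (adjusted p = 0.0428). In Leo1_01 the highest-numbered library had 117 counts against 458 and 477 in the others.

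CYP26B1 (ENSG00000003137, chromosome 2 from 72129238 to 72148038, minus strand, 6 exons) was lowest in WT cells in 10% serum, with 3, 8 and 6 counts per library. It had 80, 70 and 63 counts in WT_01, 63, 78 and 91 in Leo1_10, and 55, 28 and 68 in Leo1_01. The ERCC-scaled counts were 14.2 ± 6.32 (SD, n = 3) in WT_10, 114 ± 45.5 in WT_01, 225 ± 29.1 in Leo1_10 and 94.6 ± 75.1 in Leo1_01 (SD, n = 3 each). The 3 libraries of WT_10 lay below all others, and those of WT_01 and Leo1_01 overlapped. As a description, the log2 fold change with low serum was 2.99 (SE 0.66) in WT and −1.28 (SE 0.56) in ΔLEO1 cells, and that between ΔLEO1 and WT cells was 3.97 (SE 0.67) in 10% and −0.29 (SE 0.56) in 0.1% serum. The difference between the serum responses was −4.26 (SE 0.87), −5.05 to −3.79 with each library left out, −5.13 without the highest-numbered libraries and −4.21 on the TMM scale. In ΔLEO1 cells the ERCC-scaled counts of both sera did not overlap, but CPM did (1.62, 1.72 and 2.05 in 10% serum, 1.58, 0.861 and 1.93 in 0.1% serum), and TMM scaling gave −0.37 (SE 0.28), so that the size of the decrease depends on the scaling. On the ERCC scale the median of all tested genes was −1.05 with low serum in ΔLEO1 cells. The rise in WT cells was present on both scales, at 3.85 (SE 0.37) with TMM.

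CRABP2 (ENSG00000143320, chromosome 1 from 156699606 to 156705816, minus strand, 5 exons), the carrier of retinoic acid, was the most abundant of the 9 genes in every group. It had 492 ± 12 CPM per kilobase in WT_10, 481 ± 91.3 in WT_01, 471 ± 17.4 in Leo1_10 and 683 ± 35.7 in Leo1_01 (SD, n = 3 each). On the ERCC scale its means were 54061, 25046, 65993 and 42671 in the same order, and no comparison called it. The nearest was low serum in WT cells, where the groups did not overlap, at −1.11 (SE 0.46, adjusted p = 0.0538), and this value was called by the likelihood ratio test (adjusted p = 0.0402), by DESeq2 (0.029) and without the highest-numbered libraries (0.00972). On the TMM scale CRABP2 was called higher in Leo1_01 than in Leo1_10, by 0.48 (SE 0.13, adjusted p = 0.0166), and than in WT_01, by 0.52 (SE 0.13, adjusted p = 0.00823), whereas the ERCC value of the first was −0.63 (adjusted p = 0.211).

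Of the 3 retinoic acid receptors, RARB had more than 4 counts in the libraries of 1 group, ΔLEO1 cells in 10% serum. RARB (ENSG00000077092, chromosome 3 from 25174332 to 25597932, plus strand, 8 exons) had 1, 3 and 2 counts in WT_10, 2, 1 and 2 in WT_01, 4, 4 and 2 in Leo1_01, and 30, 41 and 60 in Leo1_10. A gene was tested where at least 3 libraries exceeded 1 CPM. RARB exceeded it in 1 library, of Leo1_10, and so was not among the tested genes. Set against 3 counts in each WT_10 library, its ERCC-scaled counts in Leo1_10 (123 ± 18.5, SD, n = 3) were at least 15.6-fold higher. Without the filter, over 32285 genes, it was called higher in Leo1_10 than in WT_10 (adjusted p = 2.74e-07), where 2.89% of all genes were, and lower in Leo1_01 than in Leo1_10 (log2 fold change −4.62, SE 0.73, adjusted p = 1.35e-07), where 7.84% were. No fold is given between the genotypes in 0.1% serum, where the counts were at or near the floor. RARB and CYP26B1 thus had their highest ERCC-scaled means in the same group, but only CYP26B1 was above the floor in WT cells in 0.1% serum. On the CPM scale the highest means were in different groups. That of CYP26B1 was in WT_01 (2.31 CPM, against 1.80 in Leo1_10) and that of RARB in Leo1_10 (1.01 CPM). RARB shares 28 exon bases with TOP2B on the other strand, which had 5757 to 10060 counts per library.

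RARA and RARG were expressed in all libraries and were not called on the ERCC scale in any comparison of the fit to all 12 libraries. RARA (ENSG00000131759, chromosome 17 from 40309192 to 40357643, plus strand) had 47.9, 47.3 and 53.9 CPM in WT_10, 76.6, 77.4 and 93.8 in WT_01, 45.7, 46.9 and 54.2 in Leo1_10, and 140, 140 and 152 in Leo1_01. RARG (ENSG00000172819, chromosome 12 from 53210567 to 53232980, minus strand) had 89.4, 90.2 and 91.5 CPM in WT_10, 89.9, 86.6 and 142 in WT_01, 34.2, 36.2 and 46.0 in Leo1_10, and 43.6, 44.9 and 61.2 in Leo1_01. On this scale both low-serum groups were above both 10% groups in RARA, and all ΔLEO1 libraries were below all WT libraries in RARG. TMM scaling called RARA higher with low serum in WT (0.65, SE 0.11, adjusted p = 0.00103) and in ΔLEO1 cells (1.5, SE 0.11, adjusted p = 8.78e-06), and higher in ΔLEO1 than in WT cells in 0.1% serum (0.82, SE 0.11, adjusted p = 1.44e-04). The ERCC values of the same comparisons were −0.33 (adjusted p = 0.533), 0.46 (0.372) and 1.11 (0.209). RARG was called lower in ΔLEO1 cells with TMM scaling, by −1.23 in 10% serum (SE 0.19, adjusted p = 3.94e-04) and −1.08 in 0.1% serum (SE 0.19, adjusted p = 0.00126), against ERCC values of −0.90 (adjusted p = 0.355) and −0.68 (0.696). Without the highest-numbered libraries RARG was called lower with low serum on the ERCC scale, at −1.14 in WT (adjusted p = 0.0142) and −1.40 in ΔLEO1 cells (adjusted p = 9.79e-04), and lower in ΔLEO1 than in WT cells in 0.1% serum, at −1.37 (adjusted p = 0.00941). The genotype call was also made without Leo1_01 replicate 12 alone, at −1.43 (adjusted p = 0.0161). RARA was called higher in Leo1_01 than in WT_01 on the ERCC scale without Leo1_01 replicate 11, at 1.44 (adjusted p = 0.0113). Exons of RARA share 556 bases with the antisense gene RARA-AS1, which had 55 to 139 counts per library.

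The 2 receptors can also be compared within a library, again as a share chosen after the values were seen and not tested. Per kilobase, RARA made up 36.7%, 36.2% and 39.0% of the sum of RARA and RARG in WT_10, 48.0%, 49.2% and 41.8% in WT_01, 59.2%, 58.4% and 56.1% in Leo1_10, and 77.7%, 77.2% and 72.9% in Leo1_01. The 4 groups did not overlap. RARG was thus the more abundant in every WT library and RARA in every ΔLEO1 library, and the share of RARA was higher in low serum in both genotypes.

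**Figure D2:**
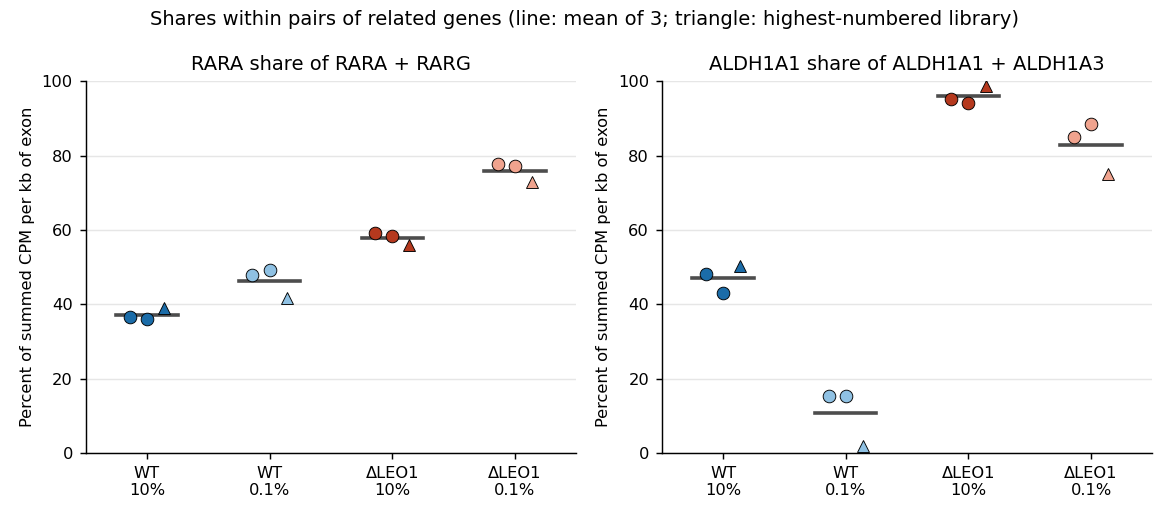
The points give the share (percent of summed CPM per kilobase of exon) of RARA in RARA plus RARG (left) and of ALDH1A1 in ALDH1A1 plus ALDH1A3 (right) in each library, with a line at the mean of 3 and a triangle for the highest-numbered library. RARA lies at 36.2% to 49.2% in WT and 56.1% to 77.7% in ΔLEO1 libraries, and ALDH1A1 at 1.9% to 50.2% in WT and 75.0% to 98.6% in ΔLEO1 libraries.

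RARRES2 (ENSG00000106538, chromosome 7 from 150338317 to 150341674, minus strand, 4 exons), which encodes chemerin, was higher in ΔLEO1 cells. It had 9, 7 and 3 counts in WT_10, 10, 8 and 2 in WT_01, 46, 68 and 39 in Leo1_10, and 176, 174 and 121 in Leo1_01. It passed the filter only through ΔLEO1 libraries, in which it is high, so its test is taken from the fit of 32285 genes without the filter. There the log2 fold change between ΔLEO1 and WT cells was 3.12 in 10% serum (SE 0.64, adjusted p = 7.06e-05), where 2.89% of all genes were called higher, and 4.48 in 0.1% serum (SE 0.66, adjusted p = 1.6e-09), where 2.27% were. Low serum gave −0.67 in WT (adjusted p = 0.566) and 0.70 in ΔLEO1 cells (adjusted p = 0.401), and the latter was 1.90 on the TMM scale. Of the chemerin receptors, CMKLR1 and CMKLR2 were tested and were lower in ΔLEO1 cells in 10% serum. CMKLR1 had 515 ± 270 ERCC-scaled counts in WT_10 and 45.0 ± 24.6 in Leo1_10 (SD, n = 3) and differed by −3.55 on the log2 scale (SE 0.61, adjusted p = 2.24e-07), and in 0.1% serum the value was −2.48 (SE 0.55, adjusted p = 2.36e-04). CMKLR2 differed in 10% serum by −2.41 (SE 0.55, adjusted p = 3.27e-04).

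Counted over the list, 6 of the 8 other genes passed the filter through libraries of both genotypes, since RARB did not pass it and RARRES2 passed only through ΔLEO1 libraries. In 10% serum 1 of the 6 was higher in ΔLEO1 cells (ALDH1A1), where 3.81% of all tested genes were, and 2 were lower (ALDH1A3 and DHRS3), where 4.20% were. In 0.1% serum the called genes were the same 3 in the same directions, with 3.49% of all genes higher and 3.41% lower, and the comparisons share no library, although they share the estimate of the spread. With low serum ALDH1A1 was the 1 gene called lower in WT, where 27.0% of all genes were, and in ΔLEO1 cells, where 36.4% were, and 0 were called higher, where 0.831% and 0.793% of all genes were. A share of 1 in 6 called lower is below both backgrounds. TMM scaling called 1 higher and 3 lower between genotypes in 10% serum (17.9% and 21.4% of all genes), 3 higher and 3 lower in 0.1% serum (15.1% and 17.3%), 1 higher and 1 lower with low serum in WT (15.5% and 16.1%), and 3 higher and 1 lower in ΔLEO1 cells (15.5% and 12.1%). Without the highest-numbered libraries, low serum called 5 of 6 lower in WT, where 63.1% of all genes were, and 4 of 6 in ΔLEO1 cells, where 91.3% were. The median log2 fold change of the 6 genes was −0.87 in WT and −0.64 in ΔLEO1 cells with low serum, beside −0.97 and −1.05 over all genes, and −0.31 and 0.04 between genotypes in 10% and 0.1% serum, beside 0.35 and 0.27.

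**Figure D3:**
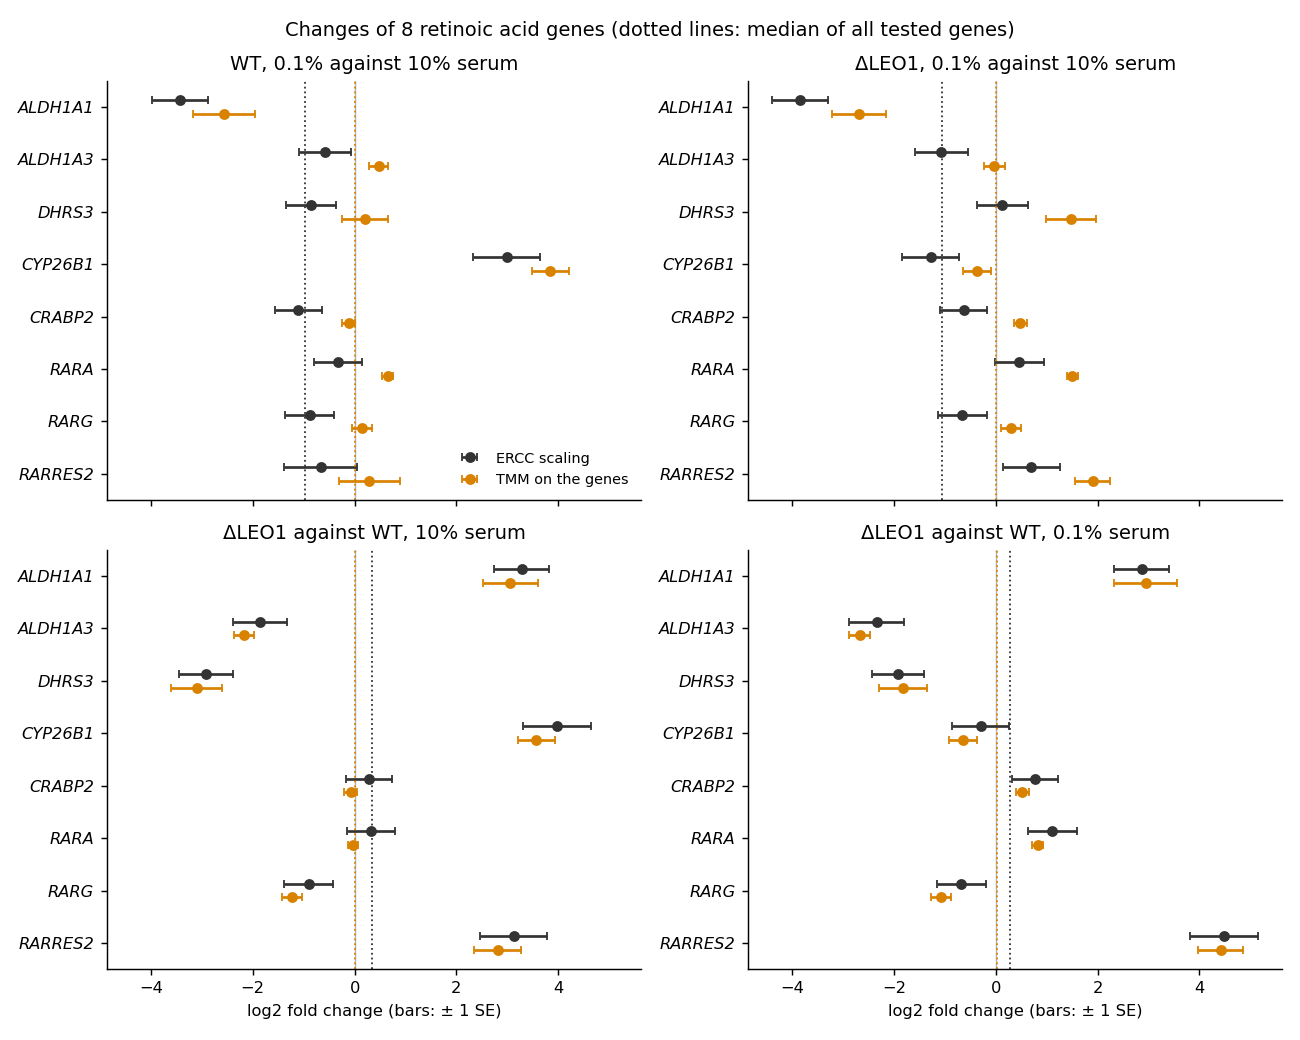
The points give the log2 fold change of the 8 genes that passed the filter in 4 comparisons, with bars of ± 1 SE, scaled on ERCC (black) or with TMM on the genes (orange), and dotted lines at the median of all tested genes. ALDH1A1 and RARRES2 are above 2.8, and ALDH1A3 and DHRS3 below −1.8, in both genotype panels on both scales, and CYP26B1 is shown as a description.

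The other genes of the pathway were taken as 5 lists of 95 genes, of which 57 were tested. Of these, 53 passed the filter through libraries of both genotypes, while CYP2S1 and ZNF423 passed only through ΔLEO1 and AKR1C3 and RARRES1 only through WT libraries. With low serum in WT cells 3 of the 53 were called higher and 12 lower, where 0.831% and 27.0% of all genes were, and in ΔLEO1 cells 3 and 18, where 0.793% and 36.4% were. Between genotypes 1 was called higher and 5 lower in 10% serum, where 3.81% and 4.20% of all genes were, and 2 and 4 in 0.1% serum, where 3.49% and 3.41% were. On the TMM scale low serum called 15 higher and 9 lower in WT, where 15.5% and 16.1% of all genes were. In ΔLEO1 cells it called 16 higher and 5 lower, where 15.5% and 12.1% were. Most serum calls were thus lower on one scale and higher on the other. Between genotypes TMM scaling called 9 higher and 16 lower in 10% serum, where 17.9% and 21.4% of all genes were. In 0.1% serum it called 7 higher and 13 lower, where 15.1% and 17.3% were. Without the highest-numbered libraries 26 were lower with low serum in WT and 39 in ΔLEO1 cells, where 63.1% and 91.3% of all genes were, and 11 were lower in ΔLEO1 than in WT cells in 0.1% serum, where 12.4% were. The median log2 fold change of the 53 was −0.80 and −0.89 with low serum and 0.19 and 0.17 between genotypes. Among genes that handle retinol, RDH10, which makes retinaldehyde, fell in WT cells from 10352 ± 1400 to 807 ± 146 ERCC-scaled counts with low serum (SD, n = 3, log2 fold change −3.68, SE 0.53, adjusted p = 1.1e-09). In ΔLEO1 cells RDH10 was called lower with low serum as well (−1.425, SE 0.49, adjusted p = 0.0251), beside a median of −1.05 over all tested genes. That call was not made on the TMM scale. RDH10 was also lower in ΔLEO1 than in WT cells in 10% serum, by −2.79 (SE 0.51, adjusted p = 2.37e-06). STRA6, the retinol uptake receptor, was lower in ΔLEO1 cells in 0.1% serum, by −2.03 (SE 0.54, adjusted p = 0.00383), and this call was lost with a library left out (largest adjusted p = 0.0716). AOX1, an aldehyde oxidase, was lower with low serum in WT (−2.63, SE 0.54, adjusted p = 4.74e-05) and in ΔLEO1 cells (−2.01, SE 0.52, adjusted p = 0.00317), where it overlapped between the sera and the call was lost with a library left out (largest adjusted p = 0.106). ADH1B, an alcohol dehydrogenase, was higher with low serum in ΔLEO1 cells (2.16, SE 0.57, adjusted p = 0.00376), and the call was lost with a library left out (largest adjusted p = 0.086). AKR1C3, an aldo-keto reductase, had a log2 fold change of −2.45 (SE 0.58) between ΔLEO1 and WT cells in 0.1% serum, given without a test since it passed the filter only through WT libraries.

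Among genes that answer to retinoic acid in other cells, RARRES1 had 465 ± 122 ERCC-scaled counts in WT_01 and 62.9 ± 10.2 in Leo1_01 (SD, n = 3, log2 fold change −2.89, SE 0.58), likewise without a test. ICAM1, an adhesion molecule, was lower with low serum in WT (−3.50, SE 0.55, adjusted p = 2.25e-08) and in ΔLEO1 cells (−2.10, SE 0.53, adjusted p = 0.00216), and lower in ΔLEO1 than in WT cells in 10% serum (−3.06, SE 0.54, adjusted p = 5.71e-07). Its level in WT_10 was uneven, with 665 to 4430 counts, and without the highest-numbered libraries these values were −2.32, −2.56 and −1.93. The serum call in ΔLEO1 cells was lost on the TMM scale (−0.86, adjusted p = 0.35). In 0.1% serum ICAM1 was also called lower in ΔLEO1 than in WT cells (−1.66, SE 0.52, adjusted p = 0.024), but not on the TMM scale. MEIS2, a homeobox factor, was lower with low serum in WT (−1.98, SE 0.49, adjusted p = 0.00134) and in ΔLEO1 cells (−1.38, SE 0.49, adjusted p = 0.0273), where the sera overlapped. DUSP6, a phosphatase of the MAP kinase pathway, was lower in WT (−1.52, SE 0.49, adjusted p = 0.0153) and in ΔLEO1 cells (−2.32, SE 0.50, adjusted p = 2.12e-04). The median of all tested genes was −0.97 in WT and −1.05 in ΔLEO1 cells. On the TMM scale MEIS2 was called lower in WT (−0.92, adjusted p = 0.00942) but not in ΔLEO1 cells. DUSP6 was called lower on that scale in ΔLEO1 cells (−1.045, adjusted p = 0.0304) but not in WT. The 3 genes called higher with low serum were STRA6, CYP1B1 and SOX9 in WT, and ADH1B, BHLHE40 and CMKLR1 in ΔLEO1 cells. Those called higher in ΔLEO1 cells were GPRC5A in 10% serum, and GPRC5A and AOX1 in 0.1% serum. CYP1B1, SOX9, BHLHE40, GPRC5A, CYP2S1 and ZNF423 were named after their values were seen.

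**Figure D4:**
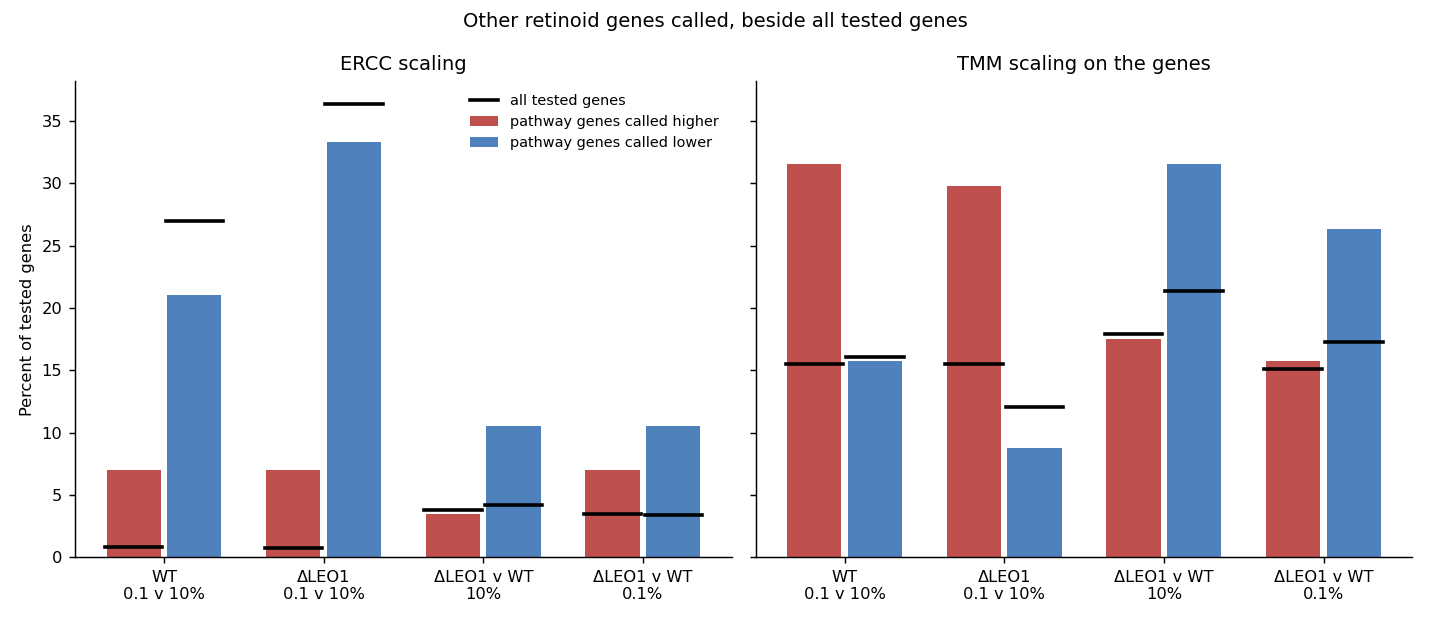
Bars give the percent of the 57 tested pathway genes called higher (red) or lower (blue) in 4 comparisons, scaled on ERCC (left) or with TMM on the genes (right), and black lines give the same percent over all 13236 tested genes. The 57 include 4 genes that passed the filter through 1 genotype. On the ERCC scale the lower bars for low serum stay under their lines, 27.0% in WT and 36.4% in ΔLEO1 cells.

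Per kilobase of exon the order of the 9 genes changed between the groups. In WT_10 CRABP2 was followed by RARG (17.6 ± 0.208 CPM per kilobase), RARA (10.5 ± 0.776) and DHRS3 (10.2 ± 3.72), of which the last 2 overlapped. ALDH1A3 and ALDH1A1 overlapped at 2.52 ± 0.359 and 2.24 ± 0.227, and RARRES2, CYP26B1 and RARB were under 0.1. In Leo1_10 ALDH1A1 was second at 18.7 ± 13.6, overlapping RARA at 10.3 ± 0.971, and RARG was at 7.57 ± 1.24 (SD, n = 3 throughout). In Leo1_01 RARA was second at 30.5 ± 1.47 and above RARG at 9.74 ± 1.91. RARB had the lowest mean in all 4 groups, but its libraries overlapped those of CYP26B1 in WT_10 and in Leo1_10.

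The genes whose log2 CPM followed these genes most closely over the 12 libraries, by Pearson's r among the tested genes, are given as a description, since the libraries form 4 groups and share their depth. For CYP26B1 they were SPATA13 (r = 0.966), COL14A1 (0.942), a fibril-associated collagen, and ARHGAP24 (0.936). COL14A1 had a mean of 0.549 CPM in WT_10, 68.6 in WT_01, 78.9 in Leo1_10 and 100 in Leo1_01. For the others they were RNF19B with RARA (0.976), PLCD1 with RARG (0.983), PLPP1 with CRABP2 (0.927), ARHGAP1 with ALDH1A1 (0.981), CDO1 with ALDH1A3 (0.992), MMD with DHRS3 (0.969) and MYO7A with RARRES2 (0.982). CDO1, which oxidizes cysteine, had means of 1.61 and 3.26 CPM in WT_10 and WT_01 and 0 in both ΔLEO1 groups.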

How the data were processed

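Poly(A) RNA libraries from 12 samples were sequenced in paired-end mode with reads of 58 bases. The authors aligned the reads to GRCh38 with the ERCC sequences and deposited raw counts per gene and per ERCC transcript. The submitters' processing notes name bcl2fastq 2.20.0.422, STAR 2.7.10a and featureCounts 1.5.1, and the methods give another STAR version. Which annotation release was counted, and with which strand setting, is not given in the sources used here.

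The 13236 genes above 1 CPM in at least 3 libraries were tested in R 4.3.3 with edgeR 4.0.16, using the two-sided quasi-likelihood F test in 1 fit of all 12 libraries and a Benjamini-Hochberg adjusted p under 0.05. The effective library size was the ERCC total times the TMM factor on the ERCC transcripts (0.978 to 1.02). The methods name edgeR and the spike-in scaling, not the test. The SE is the absolute log2 fold change divided by the square root of F. Alternatives were the likelihood ratio test, DESeq2 1.42.0, TMM or DESeq2 size factors on the genes, ERCC totals alone, other filters, fits to 6 libraries, and fits that left out, summed or modelled libraries. The procedure was tested on simulated counts with a common spread for all genes and no outlying library. That simulation does not cover the highest-numbered libraries that stood apart here.

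The 9 genes, the pathway lists, the tests and the alternatives were chosen with earlier results of these data known. Named beside them are LEO1, pathway genes called in a comparison that reach a group mean of 5 CPM (at most the 4 with the largest absolute log2 fold change per comparison), for each gene the tested gene with the highest Pearson r of log2 CPM (prior count 2), 3 for CYP26B1, and overlapping genes. Of the gene identifiers 60401 were in the table of gene names and 58453 had a GENCODE model on GRCh38, which gave positions and exon lengths. Stretches of 58 bases shared with other genes made up 0.137% of those of ALDH1A3 and 0% of the other 8 genes. Promoters are from RefSeq.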

Additional observations from a re-analysis of the deposited data

Results flagged for a closer look

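CYP26B1 was singled out because its response to low serum differed between the 2 genotypes. On the ERCC scale every WT library was higher in 0.1% than in 10% serum and every ΔLEO1 library was lower, and the difference between the responses was −4.26 (log2). This difference was not tested, since it is the value by which the gene list was chosen. The decrease in ΔLEO1 cells was −1.28 (SE 0.56) on the ERCC scale, beside a median of −1.05 over all tested genes. With TMM scaling it was −0.37 (SE 0.28), and the CPM of both sera overlapped.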

How the results depend on the processing

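No paired analysis was possible because the running numbers 1 to 12 never recur between groups. Of the 7 tested genes, RARRES2 included, 1 was called with low serum in WT cells, where 27.0% of all tested genes were called lower. The number was 2 with the likelihood ratio test, with DESeq2, and with TMM or DESeq2 size factors on the genes, 3 with a covariate per serum level for the highest-numbered libraries, 4 in a fit to the 6 libraries, 5 without the highest-numbered libraries, and 1 to 4 with a library left out. With TMM scaling 15.5% of all tested genes were called higher and 16.1% lower in WT cells, and without the highest-numbered libraries 63.1% were called lower. In ΔLEO1 cells 1 was called, where 36.4% of all tested genes were called lower. The number was 5 with either scaling on the genes, 2 with no filter or with filterByExpr (RARB being the added gene), 4 without the highest-numbered libraries, 3 with the covariates of each serum level, and 1 to 4 with a library left out. In ΔLEO1 cells TMM scaling called 15.5% of all tested genes higher and 12.1% lower. With no filter 7.84% of all genes were called lower, and without the highest-numbered libraries 91.3% were. Between genotypes in 0.1% serum 4 were called, 7 with either scaling on the genes and 2 with the lower-numbered libraries summed. In 10% serum 4 were called, and 3 to 4 with a library left out. RARRES2, which passed the filter only through ΔLEO1 libraries, was among the called genes in each of these genotype counts. Of all tested genes 3.49% were called higher and 3.41% lower in 0.1% serum, and 3.81% and 4.20% in 10% serum. With TMM scaling 15.1% were higher and 17.3% lower in 0.1% serum. For the other settings the share of all genes called is not given, so their counts cannot be set against a background. Over single values, 597 kept direction and call, 43 gained a call, 8 lost one and 24 changed sign. With TMM and with DESeq2 size factors on the genes, the sign of low serum in WT cells changed for RARA (0.65 and 0.65), RARG (0.15 and 0.15), ALDH1A3 (0.47 and 0.48), DHRS3 (0.21 and 0.21) and RARRES2 (0.29 and 0.29). In ΔLEO1 cells it changed for RARG (0.30 and 0.29) and CRABP2 (0.48 and 0.48), and between genotypes in 10% serum for RARA (−0.029 and −0.018) and CRABP2 (−0.072 and −0.060). These scalings set the median gene near 0 by construction. RARA with low serum in ΔLEO1 cells ranged from −0.083 (without Leo1_01 replicate 12) to 0.79 with a library left out, and became −0.13 without the highest-numbered libraries. DHRS3 there ranged from −0.25 (without Leo1_01 replicate 10) to 0.37 with a library left out, was −0.046 without Leo1_10 replicate 5, and became −0.15 with libraries summed and −0.0087 with the highest-numbered library as a covariate, and the cause was not tested. Of all 57 other pathway genes, TMM scaling called 18 higher with low serum in WT cells, where 15.5% of all genes were. In ΔLEO1 cells it called 17 higher and 5 lower, where 15.5% and 12.1% were. Between genotypes it called 10 higher and 18 lower in 10% serum, where 17.9% and 21.4% were. In 0.1% serum it called 9 higher and 15 lower, where 15.1% and 17.3% were. The 57 include CYP2S1, ZNF423, AKR1C3 and RARRES1, which passed the filter through 1 genotype. RARB, CYP26B1 and RARRES2 rest on fewer than 11 counts in some libraries, which limits their precision.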
